A study of Rattus norvegicus with 62 samples.

Results

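The genes described here are 36 interferon-response and MHC class I genes of the rat, taken by gene symbol from 2 tables of gene counts. Each symbol was found once in both tables, among 40982 genes. They fall into 6 roles: 4 transcription factors, 13 antiviral effectors, 5 nucleic acid sensors, 5 genes of ISG15 and ADP-ribose modification, 6 genes of peptide loading onto MHC class I, and 3 others. RNA was measured by poly-A RNA sequencing of whole L4 dorsal root ganglia, the clusters of sensory neuron cell bodies that serve the hind limb, after chronic constriction injury (CCI), a model of neuropathic pain in which loose ligatures are tied around a nerve. The ipsilateral ganglion (IL) lies on the injured side and the contralateral ganglion (CL) on the other. Male ganglia were taken at 24 h (6 IL and 6 CL), 1 week (7 and 7) and 5 weeks (5 and 5), and female ganglia at 1 week (7 and 7) and 5 weeks (6 and 6), which makes 62 libraries of 16.9 M to 33.5 M counts (M, 1e6). All groups share the injury, since the controls are the opposite ganglia of operated rats. No ganglion from an unoperated rat enters these comparisons, and strain and age are not given in the sources used here. The female and 24-h libraries carry animal codes that tie the 2 sides of a rat, while the labels of the 1- and 5-week males give replicate numbers alone, so p-values measure the spread between these samples.

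Interferons bind receptors on nearly all nucleated cells, and the Janus kinases behind those receptors activate STAT proteins. STAT2 and IRF9 then act in a complex that binds repeats of GAAA in the promoters of interferon-stimulated genes, whose products degrade or bind viral RNA, sense nucleic acids and attach the ubiquitin-like protein ISG15 to other proteins. The same stimulus raises the machinery that cuts proteins into peptides and loads them onto MHC class I, which shows them to CD8 T cells; sensory neurons, satellite glia and macrophages of the ganglion can all take part.

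Promoter stretches of 6 members are shown because they carry the interferon-response motif and belong to the genes on which the results below turn. The sequences are from RefSeq (GRCr8, a later build than the mRatBN7.2 used for the counts), run 5′ to 3′ on the gene's own strand, and show in capitals the motif searched, which is GAAA, any 2 bases and GAAA again, on either strand (read from the other strand it is TTTC, any 2 bases and TTTC).
Irf7 (chr1:205800053-205800122, minus strand): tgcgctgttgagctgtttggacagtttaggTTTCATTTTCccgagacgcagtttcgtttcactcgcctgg
Ifit3 (chr1:241527252-241527321, plus strand): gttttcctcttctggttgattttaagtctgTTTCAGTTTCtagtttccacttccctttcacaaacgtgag
Gbp2 (chr2:234005666-234005726, plus strand): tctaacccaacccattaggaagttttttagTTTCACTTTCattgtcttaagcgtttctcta
Ifitm3 (chr1:205541763-205541832, minus strand): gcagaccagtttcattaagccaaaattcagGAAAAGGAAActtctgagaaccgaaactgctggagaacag
Tap1 (chr20:4668625-4668694, minus strand): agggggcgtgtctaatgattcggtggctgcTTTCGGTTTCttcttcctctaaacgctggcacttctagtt
B2m (chr3:129549150-129549219, plus strand): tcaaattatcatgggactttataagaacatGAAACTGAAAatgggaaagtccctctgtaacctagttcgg
The motif lay 59 bases before the annotated start of Irf7, 34 before that of Ifit3 and of Ifitm3, 21 before that of Gbp2, 111 before that of Tap1 and 140 before that of B2m. A promoter entry, from 250 bases before to 50 after the start, was found for 29 of the 36 members. Mx2, Ifit2, Dhx58, Zbp1, Adar, Isg15 and Usp18 had none. On either strand this GAAA repeat stood in 19 of those 29 (65.5%), against 1034 of all 27457 promoters (3.77%). TTCNNNGAA, the form that STAT dimers bind, stood in 8 of 29 (27.6%), against 2382 of all promoters (8.68%). Matches of the 2 motifs overlapped in Bst2 alone. These matches are letters in a window and not measured sites of binding.

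Transcript levels per length differed widely among the members. On the scale of counts per 1e6 counts (CPM) per kilobase of exon, taken as the median over the 10 group medians, B2m, the light chain of MHC class I, stood at 279 (group medians 262 to 319) and Ifi27, a small membrane protein, at 219 (198 to 260). Ifitm3, which blocks virus entry at endosomal membranes, followed at 75.7 (44.9 to 125). At the other end, Zbp1, a sensor of Z-form nucleic acid, stood at 0.123 (0.0775 to 0.371) and Ifit3, which binds viral RNA, at 0.796 (0.515 to 2.13). Group medians of B2m and Ifi27 did not overlap with those of Ifitm3, nor those of Ifit3 with those of Zbp1. Every member passed the filter on low counts, but Zbp1 had as few as 4 counts in a library and Ifit3 as few as 11.

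In 6 of the 62 libraries the interferon-response genes stood far above the other libraries of the same group. These were IL 7 and CL 7 of the 1-week males, CL 2 and IL 6 of the 1-week females, and CL 5 and IL 1 of the 5-week females, so that 3 were injured-side and 3 opposite-side ganglia. In each of the 6, between 16 and 33 of the 36 members had the group's highest value by a gap beyond Dixon's 95% critical value, and in the other 56 libraries at most 3 did. Of all genes tested 0.790% to 1.44% did so in the 6 and 0.254% to 2.33% in the rest. The libraries were singled out by the members' own levels (at least 9 members beyond that value), after those levels had been seen, so the figures that follow describe them and carry no test.

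Relative to the median of the other libraries of its group, the median member was at 2.03 in CL 7 and 2.03 in IL 7 of the 1-week males, 1.85 in CL 2 and 2.30 in IL 6 of the 1-week females, and 1.86 in CL 5 and 2.76 in IL 1 of the 5-week females. The other 56 libraries lay between 0.704 and 1.34. More than 2-fold over the others were 15 to 29 members in each of the 6 and at most 8 in any other library, while of all genes tested 1.22% to 1.90% were over 2-fold in the 6 and 0.516% to 3.67% in the rest. The share of all genes over 2-fold in the 6 libraries thus lay within its range in the rest. In the female arms the 4 libraries came from 4 animals whose other ganglion was near the rest of its group, with a median ratio of 0.976 in IL 2 and 1.08 in CL 6 at 1 week and of 0.895 in IL 5 and 1.16 in CL 1 at 5 weeks. The 2 male libraries bear the same replicate number.

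**Figure D1:**
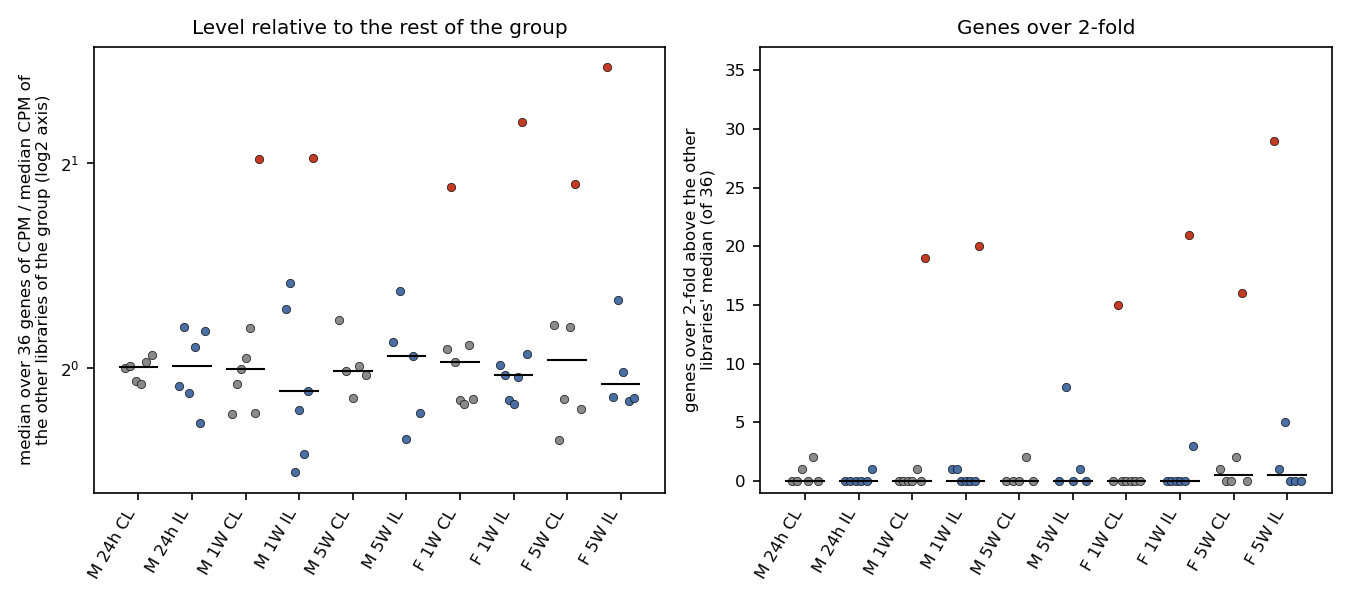
Each point is 1 library, by group and side (grey CL, blue IL, red the 6 libraries that stand apart). Left, the median over the 36 genes of CPM divided by the median of the other libraries of the group (log2 axis); right, the number of the 36 genes over 2-fold. The 6 red libraries lie at 1.85 to 2.76 on the left, above all others (at most 1.34), and at 15 to 29 genes on the right (others at most 8).

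By the median ratio, antiviral effectors (2.87), genes of ISG15 and ADP-ribose modification (2.61) and nucleic acid sensors (2.39) stood highest in these 6 libraries. Class I loading genes (1.70), transcription factors (1.67) and the 3 others (1.49) stood less far above the other libraries. Isg15, the ubiquitin-like modifier, was 5.21 to 16.5 times the median of the other libraries of its group, and Usp18, the protease that removes ISG15, 4.96 to 13.2 times. Irf7, the transcription factor that amplifies the type I interferon loop, was 4.81 to 8.49 times as high. Ifit3 ranged from 3.49 to 35.9 times and Rsad2, or viperin, from 3.05 to 26.8 times. In all, 12 members were over 2-fold in each of the 6 libraries: Irf7, Mx1, Mx2, Ifit2, Ifit3, Oas1a, Rsad2, Dhx58, Zbp1, Isg15, Usp18 and Parp14. By contrast 7 members (Irf1, Samhd1, Adar, Tap2, Tapbp, B2m and Ifi27) were over 2-fold in none. Of the class I loading genes the ratios ran from 1.03 to 3.18 with a median of 1.70, against 1.10 to 35.9 with a median of 2.87 for the antiviral effectors. B2m was at 1.04 to 1.81 and Ifi27 at 0.964 to 1.75. The GAAA repeat stood in 5 of the 6 promoters on file for the 12 genes, and in 4 of the 6 on file for the 7 genes.

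**Figure D2:**
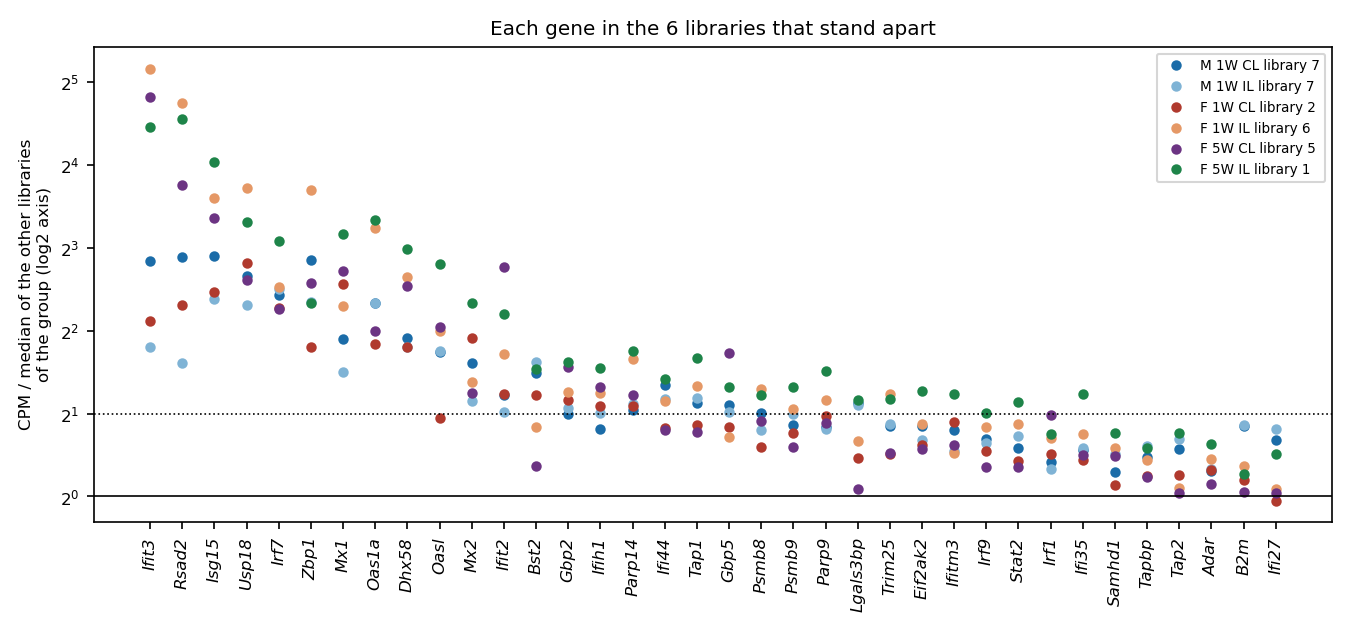
Each point is the CPM of 1 gene in 1 of the 6 libraries divided by the median of the other libraries of its group, on a log axis, with genes ordered by their median ratio. The solid line marks 1 and the dotted line 2; Ifit3, Isg15, Usp18 and Irf7 lie far above 2 in all 6, whereas B2m (1.04 to 1.81) and Ifi27 (0.964 to 1.75) lie below it.

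The interferons themselves were nearly absent from the counts. Of 10 interferon genes in the tables none passed the filter on low counts. Ifng and Ifna4 had 0 counts in all 62 libraries, Ifnb1 had 0 in 60 and at most 1 count elsewhere, 1 of these in IL 1 of the 5-week females, and Ifna1 reached at most 7. The 9 receptor and kinase genes did not stand out in the 6 libraries, where they were at 0.580 to 1.37 times the others and none was over 2-fold. Of the further interferon-induced genes tested, 43 in males and 41 in females, 13 to 28 were over 2-fold in each of the 6. Of the class I heavy chain genes tested 14 and 12 of 26 were over 2-fold in the male libraries and 3 to 8 of 25 in the female ones, where their median ratios were 1.15 to 1.56. RT1-S3 and RT1-T24-3, a pair of these chosen after their values were seen, were over 2-fold in all 6 (2.21 to 6.99 and 2.699 to 7.69).

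Markers of immune cells moved with some of the 6 libraries and not with others. The summed CPM of 19 macrophage markers was above all other libraries of the group in CL 7 of the 1-week males (388 against at most 307) and in IL 6 of the 1-week females (632 against at most 500), and not in the other 4. T and NK cell markers were above the rest in both 1-week male libraries (9.41 against at most 5.99, and 17.1 against at most 13.0) and in IL 6 of the 1-week females (13.9 against at most 12.0). Plasmacytoid dendritic cell markers were above the rest in CL 7 of the 1-week males (27.3 against at most 27.0) and in IL 6 of the 1-week females (41.2 against at most 34.9). That list includes the interferon-related genes Irf8 and Tlr9. In CL 5 of the 5-week females the sums of neutrophil markers (62.8 against at most 36.2, with 8 of 9 over 2-fold), erythrocyte markers (697 against at most 405, 10 of 11 over 2-fold) and B cell markers (5.11 against at most 4.61) were above the rest. In IL 6 of the 1-week females neutrophil and erythrocyte markers had median ratios of 5.52 and 3.08 although their sums lay within the range of the others. CL 2 of the 1-week females and IL 1 of the 5-week females had none of these immune and blood cell sums above the rest. The part of these cells in the level of the interferon genes was not tested. Markers of sensory ganglia were high in every library: Tubb3, neuronal tubulin, was at 2890 to 6116 CPM and Prph, the intermediate filament of sensory neurons, at 1369 to 2992 CPM.

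The comparison of the injured with the opposite side asks which of these genes differ between IL and CL ganglia at each time and in each sex. Differences are log2 fold changes of IL over CL from edgeR's quasi-likelihood test, with p-values adjusted by Benjamini-Hochberg over all genes tested, and a gene is called higher or lower at an adjusted p under 0.05. The median difference of the 36 members on the log2 scale was 0.12 at 24 h in males, 0.47 at 1 week and 0.40 at 5 weeks in males, and 0.28 at 1 week and 0.60 at 5 weeks in females, while the median over all genes tested was between -0.01 and 0.01. In the 1-week females the members' median was 0.69 with the share of ribosomal RNA counts as a covariate, a share that did not overlap between the sides of that arm (at least 1.69% in CL and at most 1.42% in IL ganglia). The sign was positive for 28, 34, 33, 32 and 34 of the 36 in that order. In bulk tissue more RNA per cell and more cells that carry the RNA cannot be told apart.

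The 24-h males had 1 of 36 members higher and none lower, where 8.23% of all genes were called higher and 5.9% lower, and 2 members had an unadjusted p under 0.05. At 1 week in males 15 of 36 (41.7%) were higher and none lower, against 23.6% and 23.4% of all genes. In the 5-week males 4 of 36 (11.1%) were higher, below the 16% of all genes, and none lower (18.7% of all genes). The 1-week females had 4 higher (11.1%, against 23.9% of all genes) and 1 lower (21.8% of all genes were lower). At 5 weeks in females 14 of 36 (38.9%) were higher, against 22.9% of all genes, and none lower (19.1% of all genes). Thus, with all libraries and no block, the share of members called higher stood above that of all genes in the 1-week males and the 5-week females. It stood below in the other 3 arms. When replicate number was added as a block, the 1-week males had 26 higher and 1 lower (27.3% of all genes higher, 53.9% called in either direction) and the 5-week males 14 higher and 1 lower (19.1% and 41%). The 24-h males then had 1 higher (9.53% of all genes), the 1-week females 4 higher and 1 lower (25.9% and 49.5%) and the 5-week females 15 higher (25.1%). With the block the 5-week males therefore stood above the share of all genes as well.

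More members passed without the 6 libraries. Then 25 members were higher in the 1-week males (22.2% of all genes), 22 in the 5-week females (20.3%), 10 in the 1-week females (21%) with 2 lower (40% of all genes called in either direction), 12 in the 5-week males (15.9%) with 1 lower (34.3% in either direction) and 5 in the 24-h males (8.03%). In all 5 arms the share of members called higher then stood above that of all genes. The male 5-week and 24-h arms lost no library, but all groups of a table share 1 estimate of the spread. Leaving libraries out by the genes' own levels narrows the spread of those genes, so these counts are a description beside the others. The same holds for every difference and call given below without the 6 libraries. Calls made with all libraries were kept without the 6 in all arms but for Tap2 in the 5-week females.

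**Figure D3:**
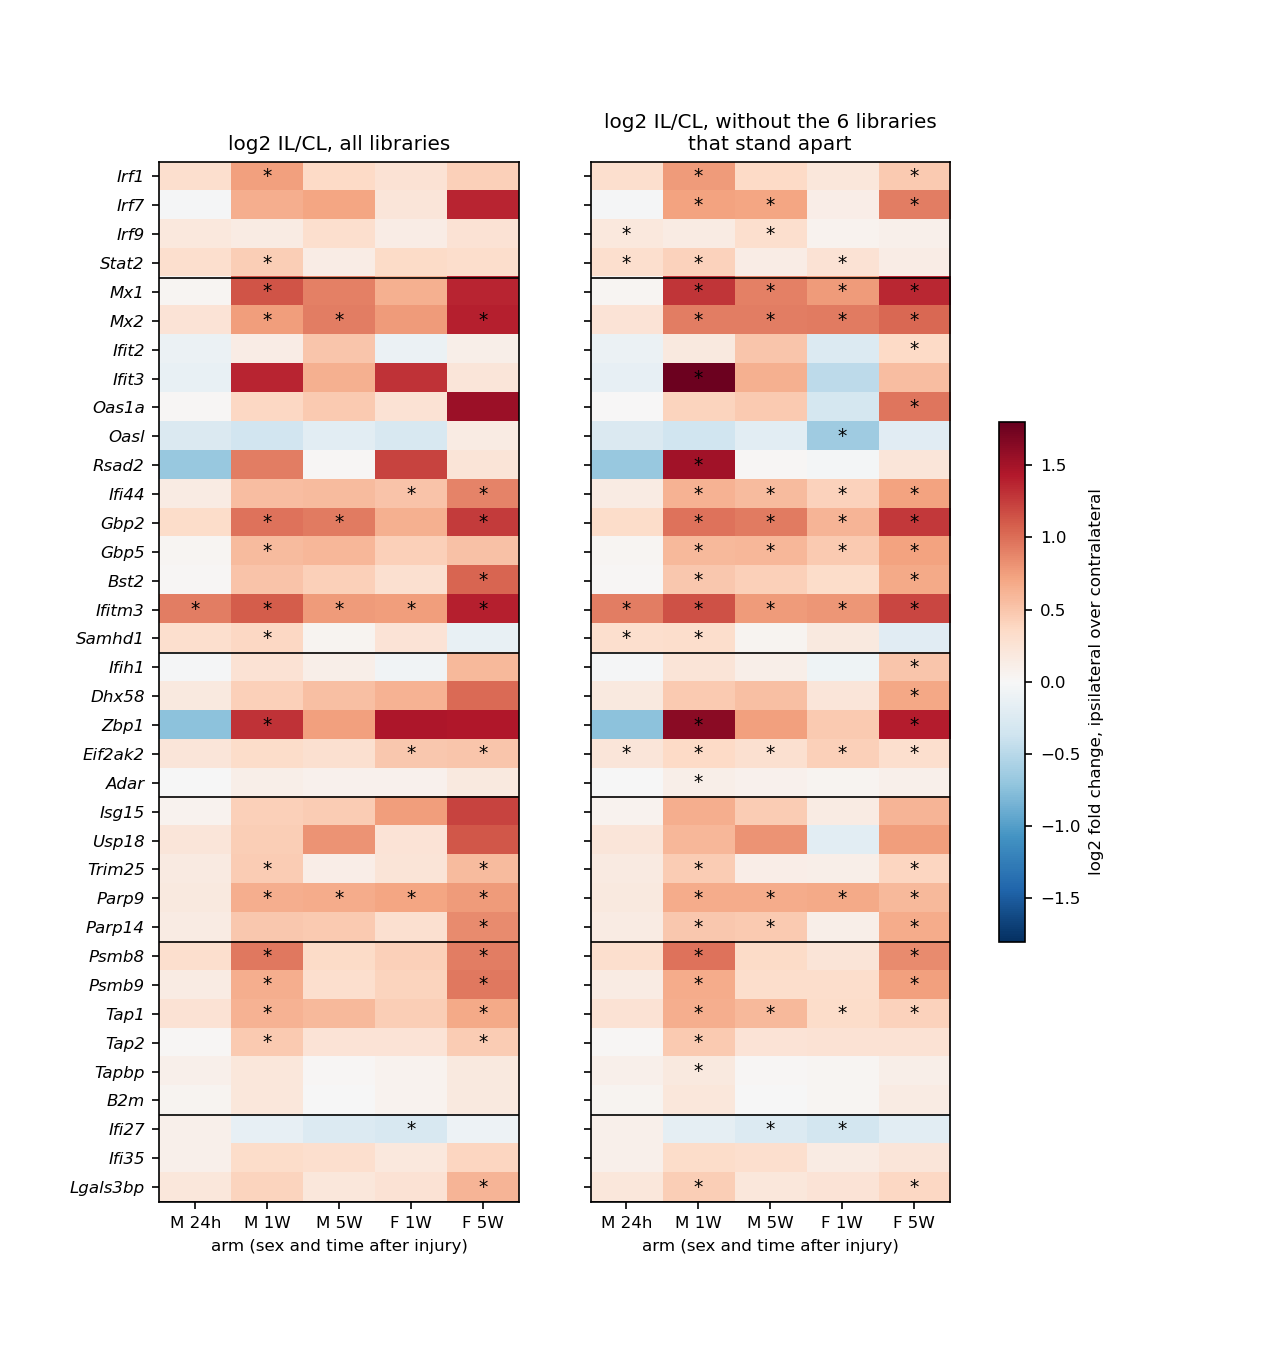
Heat maps of the log2 fold change, IL over CL, of the 36 genes (vertical, grouped by role) in the 5 arms (horizontal), with all libraries on the left and without the 6 on the right. An asterisk marks an adjusted p under 0.05; the left panel holds 1, 15, 4, 5 and 14 of them in the 24-h, 1-week and 5-week males and the 1-week and 5-week females.

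Among the antiviral effectors, Ifitm3 alone of the 36 was higher on the injured side in all 5 arms. At 24 h in males it was at 27.5 to 41.9 CPM (median 33.3) in CL and 48.7 to 75.0 CPM (median 67.0) in IL ganglia, and at 1 week at 20.6 to 59.0 (34.6) and 57.8 to 108 (75.5). The 5-week males had 33.5, 36.8, 26.8, 35.7 and 26.8 CPM in CL and 52.9, 61.4, 40.1, 61.2 and 56.9 CPM in IL ganglia. The 2 sides did not overlap at 24 h and 5 weeks and barely did at 1 week. In females the medians were 30.1 CPM (21.3 to 55.2) in CL and 57.2 CPM (38.2 to 81.6) in IL at 1 week, and 27.1 CPM (19.3 to 34.1) and 57.9 CPM (49.4 to 132) at 5 weeks, with overlap at 1 week and none at 5. The log2 fold changes were 0.92 ± 0.22 (SE, adjusted p = 0.0034), 1.09 ± 0.17 (1.84e-05) and 0.77 ± 0.21 (0.00565) in males at 24 h, 1 week and 5 weeks, and 0.75 ± 0.20 (0.00289) and 1.40 ± 0.22 (6.46e-06) in females. Every replicate number had the higher value on the injured side. Ifitm3 has close copies in the genome, as have the Mx, Gbp, Oas and Ifit genes, and reads shared between copies could be split by the counting.

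Gbp2, a guanylate-binding GTPase that attacks the vacuoles of intracellular microbes, rose in 3 arms. In the 1-week males it was at 22.2 to 48.9 CPM (median 24.8) in CL and 35.6 to 96.3 CPM (46.9) in IL ganglia, a log2 fold change of 0.98 ± 0.21 (adjusted p = 0.000491). In the 5-week males the CL values were 27.1, 24.0, 27.3, 21.9 and 16.9 CPM and the IL values 48.8, 54.9, 44.7, 39.6 and 36.2 CPM, without overlap (0.93 ± 0.25, adjusted p = 0.00567). The 5-week females had 14.3 to 49.0 CPM (16.9) in CL and 35.5 to 116 CPM (41.4) in IL ganglia, a log2 fold change of 1.26 ± 0.32 (adjusted p = 0.00195). Both maxima there belong to libraries that stand apart, and without these the log2 fold change was 1.27. In the 1-week females, at 14.8 to 37.3 (16.7) and 18.3 to 61.9 CPM (27.5), the difference of 0.64 did not pass (adjusted p = 0.079).

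Mx2 and Mx1, dynamin-like GTPases that trap viral particles, gave calls that single libraries could end. Mx2 was higher in the 1-week males (0.76, adjusted p = 0.0305), the 5-week males (0.91, adjusted p = 0.041) and the 5-week females (1.40, adjusted p = 0.00348). In the 5-week males its CL values were 45.1, 41.4, 38.6, 47.1 and 41.9 CPM and its IL values 66.6, 96.5, 68.8, 100.5 and 70.8 CPM, with no overlap. The 1-week male call was lost without any one of 7 libraries (adjusted p up to 0.0989, without IL 7) and the 5-week male call without any one of 7 (adjusted p up to 0.0874), and both were lost with no filter on low counts. Mx2 was also higher in the 1-week females with the replicate block (0.87, adjusted p = 0.0356). The 5-week female call was lost without IL 1 (350 CPM, in a group with a median of 72.9), at an adjusted p of 0.0587. Mx1 was called in the 1-week males alone (1.14, adjusted p = 0.021), from a median of 15.3 CPM (8.43 to 51.9) to 32.9 CPM (17.3 to 92.8), and that call was lost without IL 7. Its 5-week female difference of 1.37 did not pass with all libraries (adjusted p = 0.0747) and was 1.36 without the 6.

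Of the other effectors, 4 were called in 1 or 2 arms. Gbp5, a relative of Gbp2, was higher in the 1-week males (0.58, adjusted p = 0.0374), as was Samhd1, which depletes the nucleotide pool that viruses need (0.37, adjusted p = 0.0118). Samhd1 went from a median of 7.17 CPM (6.24 to 8.66) to 9.45 CPM (6.65 to 12.9), with overlap. Ifi44, an interferon-induced protein of the cytoplasm, was higher in females at 1 week (0.51, adjusted p = 0.0449) and 5 weeks (0.89, adjusted p = 0.00208). Bst2, or tetherin, which holds budding virus at the cell surface, rose in the 5-week females from a median of 12.9 CPM (8.79 to 18.2) to 21.4 CPM (15.7 to 60.3), a log2 fold change of 1.05 ± 0.27 (adjusted p = 0.00239).

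With all libraries, Ifit2, Ifit3, Oas1a, Oasl and Rsad2 passed the test in no arm without the block. With the block Ifit3 alone passed, in the 1-week males (1.52, adjusted p = 0.00614). Oas1a makes the oligoadenylate that switches on RNase L, Oasl is a relative of it, and the Ifit proteins bind foreign RNA. Ifit3 in the 1-week males was at 0.702 to 7.75 CPM (median 1.17) in CL and 1.52 to 14.1 CPM (4.36) in IL ganglia, a log2 fold change of 1.37 ± 0.57 (adjusted p = 0.0543), and it was higher on the injured side in 7 of 7 numbered pairs. In the 1-week females it was at 1.33 to 7.56 (1.89) and 0.662 to 37.9 CPM (1.20), and the fitted difference of 1.30 (adjusted p = 0.244) came to -0.47 without CL 2 and IL 6 (adjusted p = 0.25) and to -1.01 without IL 6 alone. Its 5-week female values were 0.543 to 20.6 (1.05) and 0.573 to 22.7 CPM (1.28), a difference of 0.21 (adjusted p = 0.882). In each of these groups the highest value, in a library that stands apart, was more than 3 times the median.

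Of the transcription factors, Irf1 and Stat2 rose in the 1-week males and, without the block, in no other arm with all libraries. Irf1, which drives class I loading genes, had CL values of 7.98 to 14.4 CPM (median 10.8) and IL values of 14.3 to 22.1 CPM (18), a log2 fold change of 0.74 ± 0.14 (adjusted p = 0.000127). Only the edges of the 2 ranges met, and the difference held without any single library. Irf1 was higher with the replicate block in the 5-week males (0.38, adjusted p = 0.00175) and the 5-week females (0.45, adjusted p = 0.0383) as well. Stat2 had 48.6 to 76.9 CPM (51.3) and 59.5 to 110 CPM (66.8), a log2 fold change of 0.44 (adjusted p = 0.0045). At 24 h its sides did not overlap (49.2 to 53.4 CPM and 54.2 to 72.0 CPM). The difference of 0.31 did not pass with all libraries (adjusted p = 0.218). It was called without the 6, where this arm lost no library and the shared spread was narrower, so that call is no separate evidence. Irf9, the DNA-binding partner of Stat2, passed in no arm with all libraries and without the block, with differences of 0.14 to 0.30. With the block it passed in the 5-week males (0.29, adjusted p = 0.0126).

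Irf7 passed the test in no arm with all libraries and without the block, although it was among the 12 members over 2-fold in all 6 libraries that stand apart. The 24-h males were at 8.66 to 12.8 CPM (median 10.1) in CL and 7.88 to 13.1 CPM (10.1) in IL ganglia, a difference of -0.03. The 1-week males were at 9.48 to 74.9 (14.2) and 12.1 to 112 CPM (23.2), and the 5-week males at 17.4, 12.8, 12.3, 12.0 and 12.4 CPM against 21.2, 31.4, 14.6, 27.0 and 15.2 CPM. Females were at 8.003 to 46.8 (10.5) and 9.13 to 60.05 CPM (11.1) at 1 week and at 7.202 to 36.1 (9.22) and 12.3 to 125 CPM (15.6) at 5 weeks. All 6 maxima of the 1-week males and of the females are the libraries that stand apart. In the 5-week females the log2 fold change was 1.37 ± 0.56 (adjusted p = 0.0501) with all libraries and 0.92 without the 6. With the replicate block the 1-week male difference of 0.63 passed (adjusted p = 0.0436).

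**Figure D4:**
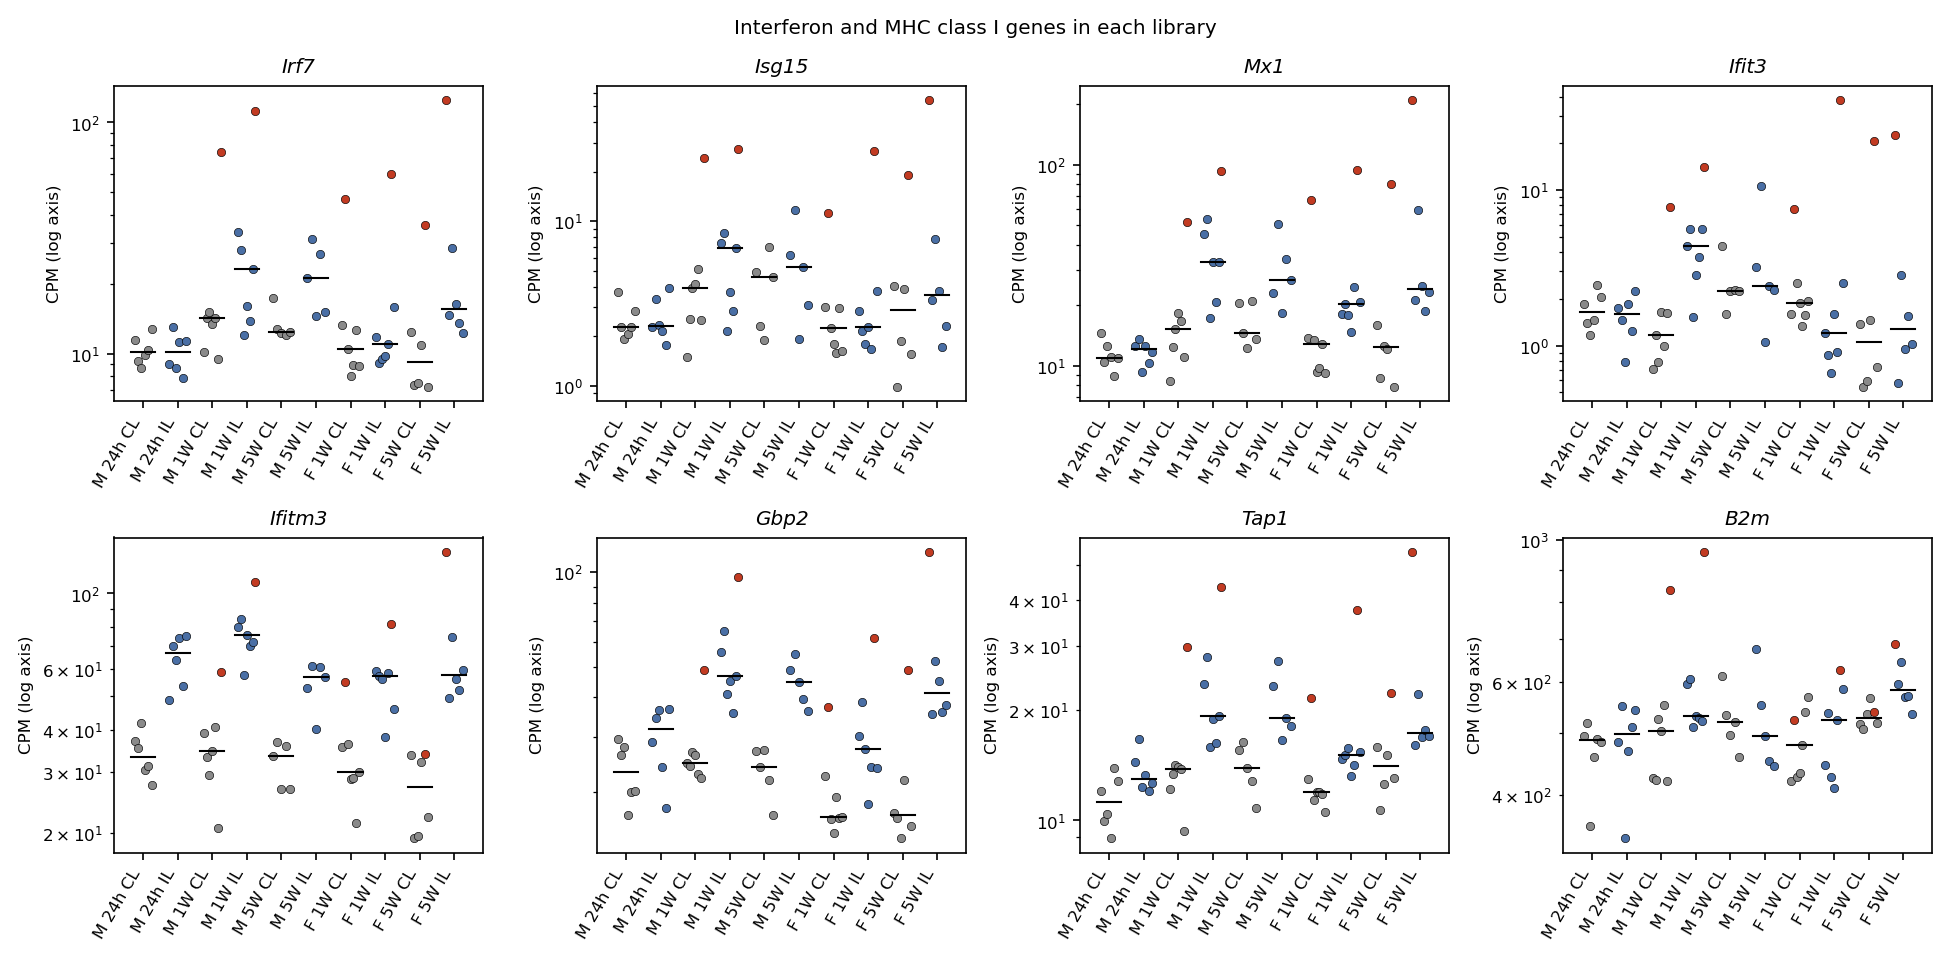
CPM (log axis) of Irf7, Isg15, Mx1, Ifit3, Ifitm3, Gbp2, Tap1 and B2m in each of the 62 libraries by group; grey points are CL, blue IL and red the 6 libraries that stand apart, and the black line is the group median over all libraries. Irf7, Isg15, Mx1 and Ifit3 show 1 red point high above its group in 6 of the 10 groups, whereas for Ifitm3 the IL median lies above the CL median in all 5 arms.

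The nucleic acid sensors gave few calls. Eif2ak2, the kinase PKR that halts translation on double-stranded RNA, was higher in females at 1 week (0.48, adjusted p = 0.0178) and 5 weeks (0.50, adjusted p = 0.0274). Its medians went from 36.2 CPM (33.9 to 55.3) to 49.5 CPM (45.5 to 90.004) at 1 week and from 37.4 CPM (35.5 to 55.0) to 45.9 CPM (44.2 to 110) at 5 weeks, and in each arm only the CL library that stands apart lay within the IL range. Without the 6 libraries Eif2ak2 was higher in all 5 arms (0.22 to 0.42), the sole member beside Ifitm3 of which this was so. That setting was chosen by the members' own levels and carries no test. Zbp1 rose in the 1-week males (1.30, adjusted p = 0.0468), from a median of 0.655 CPM (0.372 to 4.59) to 1.79 CPM (0.871 to 8.68), on few counts.

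Ifih1, or MDA5, which detects long double-stranded RNA, passed in no arm with all libraries. In the 1-week males it was at 9.67 to 18.2 CPM (median 10.8) in CL and 10.02 to 23.3 CPM (11.7) in IL ganglia (0.26, adjusted p = 0.276), and in the 5-week females at 7.04 to 19.5 (8.13) and 9.66 to 33.0 CPM (12.0), a difference of 0.58 (adjusted p = 0.0945). Without the 6 libraries the 5-week female difference was 0.50 and was called, again a description and no test. With all libraries and without the block, Dhx58, the regulator LGP2, and Adar, which edits adenosines in double-stranded RNA, passed in no arm either. Their differences were 0.17 to 1.02 and -0.01 to 0.18. The block added Eif2ak2 in both later male arms (0.34, adjusted p = 0.00285, and 0.28, adjusted p = 0.0351) and Adar in the 1-week males (0.11, adjusted p = 0.0157).

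Of the genes of ISG15 and ADP-ribose modification, Parp9 rose in 4 of the 5 arms and Isg15 and Usp18 in none. Parp9 works with a ubiquitin ligase at damaged DNA and in interferon signalling. Its 5-week male values were 21.9, 19.7, 21.1, 20.6 and 18.5 CPM in CL and 29.5, 35, 28.0, 38.4 and 31.1 CPM in IL ganglia, with no overlap (0.67 ± 0.19, adjusted p = 0.00691). In the 1-week males it was at 21.4 to 41.6 (23.5) and 32.9 to 64.2 CPM (38.4), a difference of 0.66 (adjusted p = 0.00108). Females had 19.1 to 40.7 (21.4) and 29.0 to 71.5 CPM (32.9) at 1 week (0.71, adjusted p = 0.00954), and 18.7 to 36.1 (19.9) and 28.2 to 82.6 CPM (29.0) at 5 weeks (0.77, adjusted p = 0.0116). In these 3 arms the single CL library within the IL range was the one that stands apart from its group. Both female calls were lost with 1 IL library left out, IL 6 at 1 week and IL 1 at 5 weeks.

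Isg15 was at 1.49 to 24.3 CPM (median 3.93) in CL and 2.15 to 27.7 CPM (6.87) in IL ganglia of the 1-week males (0.42, adjusted p = 0.609). In females it was at 1.59 to 11.3 (2.26) and 1.68 to 27.0 CPM (2.28) at 1 week and at 0.988 to 19.1 (2.88) and 1.72 to 54.5 CPM (3.54) at 5 weeks (1.22, adjusted p = 0.215). Isg15 and Usp18 passed in no arm without the 6 libraries either. Trim25, the ligase that activates the RNA sensor RIG-I, was higher in the 1-week males (0.46, adjusted p = 0.0237; lost without IL 7) and the 5-week females (0.57, adjusted p = 0.027), and Parp14, an ADP-ribosyltransferase, in the 5-week females (0.85, adjusted p = 0.0298).

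Among the 6 genes of class I loading, the same 4 were called in the 1-week males and in the 5-week females: Psmb8 and Psmb9, catalytic subunits of the immunoproteasome, and Tap1 and Tap2, which form the transporter of peptides into the endoplasmic reticulum. They are neighbours on chromosome 20 (mRatBN7.2), with Tap2 at 4636347 to 4650387, Psmb8 at 4652159 to 4655122, Tap1 at 4656262 to 4666634 and Psmb9 at 4667044 to 4672512. Psmb8 went from a median of 5.39 CPM (3.95 to 10.7) to 11.5 CPM (8.12 to 19.3) in the 1-week males (0.95 ± 0.20, adjusted p = 0.000369) and from 5.44 CPM (3.77 to 9.26) to 8.96 CPM (8.28 to 19.8) in the 5-week females (0.92 ± 0.29, adjusted p = 0.0119). Psmb9 went from 4.71 CPM (2.78 to 8.51) to 6.62 CPM (4.98 to 12.8) in the former (0.65, adjusted p = 0.0123) and from 4.06 CPM (2.81 to 5.37) to 6.62 CPM (5.27 to 15.5) in the latter (0.95 ± 0.24, adjusted p = 0.00159). The 5-week female call of Psmb8 was lost without IL 1. In both arms the sides overlapped at the edges.

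Tap1 was at 9.33 to 29.8 CPM (median 13.8) in CL and 15.8 to 43.5 CPM (19.3) in IL ganglia of the 1-week males (0.63, adjusted p = 0.0328), and at 10.7 to 22.3 (14.1) and 16.1 to 54.3 CPM (17.4) in the 5-week females (0.68, adjusted p = 0.0356). Tap2 differed by 0.48 (adjusted p = 0.0414) and 0.46 (adjusted p = 0.0418) in these arms, and the latter was lost without the 6 libraries (0.26, adjusted p = 0.29). With the replicate block the 5-week female call of Tap1 was lost. Tapbp, or tapasin, the loading chaperone, passed in no arm with all libraries and without the block (0.02 to 0.20). With the block it passed in the 1-week males (0.19, adjusted p = 0.0032). In the 5-week males the block added Tap1 (0.58, adjusted p = 0.0036) and Tap2 (0.25, adjusted p = 0.00803), and in the 5-week females the Tap1 call was lost with it (adjusted p = 0.0666).

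B2m, the most abundant member per length, differed little between sides. It was at 420 to 836 CPM (median 503) in CL and 510 to 960 CPM (532) in IL ganglia of the 1-week males (0.21, adjusted p = 0.305) and at 506 to 567 (527) and 535 to 689 CPM (584) in the 5-week females (0.18, adjusted p = 0.165). Its differences in the other arms were 0.05, -0.00 and 0.07, and none passed. With the replicate block B2m was higher in the 1-week males (0.21, adjusted p = 0.0225) and the 5-week females (0.18, adjusted p = 0.00214).

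Of the other 3 genes, Ifi27 was the sole member called lower with all libraries. The block added calls of it in the 1-week males (-0.15, adjusted p = 0.0255) and the 5-week males (-0.25, adjusted p = 0.00456). In the 1-week females it was at 186 to 215 CPM (median 205) in CL and 129 to 181 CPM (171) in IL ganglia, with no overlap (-0.29 ± 0.10, adjusted p = 0.0168). That call was lost without IL 2 (adjusted p = 0.0511) and when the share of ribosomal RNA reads was a covariate (adjusted p = 0.961). This share was 1.69% or more in each 1-week female CL library and 1.42% or less in each IL library. Lgals3bp, a secreted galectin ligand, rose in the 5-week females (0.61, adjusted p = 0.0049), and Ifi35, a partner of the signalling protein Nmi, passed in no arm without the block (0.09 to 0.38) and with it in the 1-week males (0.32, adjusted p = 0.00768) and the 5-week males (0.31, adjusted p = 0.0367).

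Counted by member, without the block, 15 of the 36 passed in no arm, 10 in 1, 7 in 2, Mx2 and Gbp2 in 3, Parp9 in 4 and Ifitm3 in 5. Without the 6 libraries 4 passed in none (Isg15, Usp18, B2m and Ifi35). The same tally over all genes was not made, so these numbers describe the members alone. Calls that held with each library left out in turn numbered 1 of 1 in the 24-h males, 8 of 15 in the 1-week males, 3 of 4 in the 5-week males, 1 of 5 in the 1-week females and 6 of 14 in the 5-week females. Those of the 1-week males were Irf1, Stat2, Gbp2, Ifitm3, Samhd1, Parp9, Psmb8 and Psmb9, and those of the 5-week females Ifi44, Gbp2, Bst2, Ifitm3, Psmb9 and Lgals3bp. In the 1-week females Ifitm3 alone held; Ifi44, Eif2ak2, Parp9 and Ifi27 were lost with the ribosomal covariate, and Ifi44 with the block too (adjusted p = 0.0557).

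Whether the side difference itself changed with time or sex was tested as an interaction. None of the 36 passed for 5 weeks against 1 week in males (0.211% of all genes called in either direction) or in females (13.5%), for 1 week against 24 h in males (23%), or for females against males at 1 week (1.11%) or 5 weeks (2.11%). At an unadjusted p under 0.05 there were 0, 3, 1, 1 and 0 members in that order, and the smallest adjusted p was 0.508, 0.159, 0.149, 0.368 and 0.447. The 3 members of the female week comparison were Bst2 (0.76), Ifitm3 (0.65) and Samhd1 (-0.39). So the larger number of calls in the 1-week males and 5-week females than in the other arms is not a tested difference between arms. At 1 and 5 weeks each sex has a count table of its own, and sex and table cannot be told apart; side differences alone were compared. With the replicate block Zbp1 and Tap2 passed for 1 week against 24 h (14.1% of all genes called higher), and without the 6 libraries 8 members did (10.7% higher): Mx1, Mx2, Ifit3, Rsad2, Ifi44, Gbp2, Zbp1 and Parp9. The same omission gave 3 members for the female weeks (Ifit2 0.61, Ifih1 0.58 and Parp14 0.56, with 8.62% of all genes called). It gave 1 for females against males at 1 week (Ifit3, -2.25, with 0.585% of all genes called). Calls made without the 6 libraries are again a description, since the omission rested on the members' own levels.

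Within one side, the opposite ganglia gave no member between 5 weeks and 1 week in males (13.5% of all genes called) or females (10.7%), and neither did the injured-side ganglia of males (14.4%). In the injured-side ganglia of females 3 of 36 members (8.33%) were higher at 5 weeks, no more than the 8.74% of all genes. They were Bst2 (0.91, adjusted p = 0.0132), Tapbp (0.25, adjusted p = 0.0272) and Ifi27 (0.31, adjusted p = 0.037). None of these was left without IL 1 of the 5-week females. Without the 6 libraries 11 members passed in that comparison (11.8% of all genes called), 2 in the opposite ganglia of males (Adar and Tapbp; 11.9%) and 1 in the injured-side ganglia of males (Adar; 12.5%).

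Genes upstream of the members were also compared between sides. The shares of all genes called higher, for reading the counts that follow, were 8.23%, 23.6%, 16%, 23.9% and 22.9% in the 24-h, 1-week and 5-week males and the 1-week and 5-week females. Of 9 receptor and kinase genes 2, 8, 6, 9 and 7 were higher in these arms in that order, and 1 (Jak1, -0.14, in the 5-week males) was lower. Ifnlr1, the receptor chain for interferon lambda, rose in all 5 arms (1.14, 1.22, 1.28, 1.40 and 1.05), as did the kinase Jak2 (0.47, 0.78, 0.55, 0.69 and 0.72). Ifngr2, a receptor chain for interferon gamma, rose in 4 arms by 0.57 to 0.61 and not at 24 h (0.12). Of 10 other interferon-related transcription factors and regulators 2, 7, 5, 6 and 5 were higher and 1 was lower in each arm. Socs3, a feedback inhibitor of Janus kinases, differed most among those named (2.63, 2.61, 1.91, 2.48 and 1.90), and Stat3 rose by 0.24 to 0.54 in all 5. Of 12 genes of upstream sensing 2, 10, 1, 9 and 9 were higher and 1 lower in each arm, with Myd88, the adaptor of Toll-like receptors, higher in all 5 (0.71, 0.95, 0.61, 0.86 and 0.71).

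Of 43 further interferon-induced genes, not all of which passed the filter, 2, 18, 6, 9 and 23 were higher in the arms in the same order, and 1 was lower in each male arm. In the 24-h males, the 5-week males and the 1-week females that is at or below the share of all genes, and in the other 2 arms above it. Slfn2, a regulator of T cell quiescence, and Plscr1, a phospholipid scramblase, rose by 1.19 each in the 5-week females, and in the 1-week females Slfn2 rose by 0.94 and Plscr1 by 0.80. Of 30 class I heavy chain genes, whose near-identical copies make single counts uncertain, 25 or 26 were tested and 0, 12, 2, 7 and 9 were higher. RT1-A2, the classical heavy chain gene, rose by 0.44 in the 1-week females and 0.55 in the 5-week females. Of 12 further genes of the class I pathway 0, 3, 2, 4 and 3 were higher and 0, 2, 1, 1 and 3 lower, counts too small to set this list apart from all genes. Tapbpl, a tapasin relative, was higher in both sexes at 1 week (0.54 in males and 0.45 in females).

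Markers of macrophages and, in the 1-week males, of several blood cells were higher on the injured side. Of 19 macrophage markers 0, 16, 4, 15 and 15 were higher in the 24-h, 1-week and 5-week males and the 1-week and 5-week females and 1 was lower in the 5-week males, and their summed CPM had medians of 366 in CL and 333 in IL at 24 h, 248 and 727 at 1 week and 389 and 566 at 5 weeks in males, and 189 and 490 and then 183 and 467 in females. Of 16 T and NK cell markers 7 passed the filter on low counts in the female and 24-h male arms and 9 elsewhere. In each arm 1 or 2 of them were higher. Plasmacytoid dendritic cell markers were higher in 0, 5, 2, 4 and 3 of 5 tested. These include Irf8 and Tlr9, which are also counted above among the transcription factors and the sensing genes. Siglech, of the same list, was not tested in the 24-h males or in the females, which share 1 filter on low counts. In the 1-week males 9 of 9 neutrophil markers tested (median 1.79), 10 of 11 erythrocyte markers (1.61) and 5 of 6 B cell markers (1.40) were higher too, and in the other arms 0 or 1 of each list. Of these lists 2 neutrophil markers and 1 B cell marker were lower at 24 h, and 1 B cell marker in the 1-week females. The part of such cells in the side differences of the 36 genes was not tested.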

How the data were processed

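The deposited tables hold estimated counts per gene, since 74.1% of the values above 0 in the first table and 78.1% in the second were exactly whole, with no tolerance; they were rounded to whole numbers, which changed no library total by more than 0.0014%. Per the labels' protocols RNA was poly-A selected, libraries were made with a stranded kit and sequenced in single-end mode at one of 2 read lengths, with the run of each library not given. Per the submitters' processing notes the tools were STAR 2.7.2b, featureCounts 1.6.4 of Subread, bcl2fastq 2.20.0.422 and cutadapt 2.5, with mRatBN7.2; their settings are not given in the sources used here.

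The table of the 1- and 5-week males (24 libraries) and that of the females and 24-h males (38 libraries) were fitted separately with edgeR 4.0.16 (R 4.3.3): robust quasi-likelihood fit, TMM scaling, all groups of the table in 1 fit, filterByExpr with a minimum count of 10 (18980 and 18125 genes tested), and Benjamini-Hochberg adjustment over all genes tested at 0.05. Comparisons of females with males, and of 1 week with 24 h, used 1 fit of all 62 libraries (19209 genes). CPM uses the TMM-scaled library sizes.

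Members and lists were chosen with earlier results of these data known. Values by library are given for Irf7, Ifit3, Ifih1, Isg15, Tap1 and B2m and for the 3 members with the smallest p in each side comparison, and for further members that were called; of other lists, the 3 genes with the smallest p in a comparison, and ligands and receptors, may be named.

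Samples of 1 number deviated together on the 2 sides: the median correlation of their deviations from the group means was 0.407 in the 1-week males (lowest 0.222), 0.273 in the 5-week males (0.197), 0.275 in the 1-week females (0.111), 0.293 in the 5-week females (0.243) and 0.202 in the 24-h males (0.0100, where animal codes pair the samples). The number was therefore also fitted as a block. Other alternatives were RLE scaling, DESeq2 1.42.0, limma-voom (limma 3.58.1), no filter, a minimum count of 50, the share of ribosomal RNA counts as a covariate, only the 2 groups compared, the CL libraries of the other week, and each library left out in turn. Leaving out the 6 libraries that stand apart was chosen after seeing the data.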

Additional observations from a re-analysis of the deposited data

Results flagged for a closer look

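Of 150 sets, each 1 of 15 named members in 1 of 10 groups, 58 held a library beyond Dixon's 95% critical value. That value applies to the gap to the nearest other library, divided by the range of the group. The libraries that stand apart account for 52, and 6 fell elsewhere. Those libraries were singled out by the same rule on the members, so these counts describe them and carry no test. Values are CPM, and in each sentence the order is CL 7 and IL 7 of the 1-week males, CL 2 and IL 6 of the 1-week females, and CL 5 and IL 1 of the 5-week females, as far as they apply.

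All 6 were beyond that value for Irf7 (74.9, 112, 46.8, 60.05, 36.1 and 125), Ifit3 (7.75, 14.1, 7.56, 37.9, 20.6 and 22.7) and Isg15 (24.3, 27.7, 11.3, 27.0, 19.1 and 54.5). Ifih1 stood out in 5 of them, not in male IL 7 (18.2, 20.6, 20.8, 19.5 and 33.0). Tap1 (29.8, 21.7, 37.5 and 54.3) and Stat2 (76.9, 68.2, 111 and 132) stood out in 4, not in male IL 7 or female CL 5. Gbp2 did so in male CL 7, female CL 2, female CL 5 and female IL 1 (48.9, 37.3, 49.0 and 116), and Parp9 in the 4 female libraries (40.7, 71.5, 36.1 and 82.6).

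Irf1 (18.6, 19.6 and 24.6) and Samhd1 (11.4, 10.5 and 11.0) were high in female IL 6, CL 5 and IL 1. Psmb9 was high in female IL 6 and IL 1 (9.75 and 15.5), and Ifitm3 (132) and Psmb8 (19.8) in female IL 1. B2m was high in both male libraries (836 and 960), and Ifi27 in male IL 7 (311).

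Elsewhere, Irf7 (17.4) and Ifit3 (4.36) were high in CL 1 of the 5-week males and Ifit3 (10.6) in IL 2 of that arm. Irf1 was high in CL 5 of the 24-h males (13.2) and B2m low in CL 3 (357), and Psmb8 was low in IL 3 of the 5-week males (5.96).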

How the results depend on the processing

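No result changed sign while called, and RLE scaling moved the median of all genes by at most 0.0112 and kept every call. The counts below are members called in either direction. In the 24-h males 1 was called, and 4 when only the 2 groups were fitted. The 1-week males had 15 called and 8 with only the 2 groups, the 5-week males 4 called, 10 with the ribosomal covariate and 13 with only the 2 groups. In the 1-week females 5 were called (45.7%) and 1 with the ribosomal covariate (22.4%). The 5-week females had 14 (42%), and 9 with no filter (22.1%). They had 9 with only the 2 groups (43.8%) and 24 against the CL libraries of 1 week (36.7%). Without the 6 libraries that stand apart the counts were 5 (13.7%), 25 (43.9%), 13 (34.3%), 12 (40%) and 22 (36.9%) in that order. The same setting gave 2 for CL ganglia of males at 5 against 1 week (11.9%), 1 for IL ganglia of males (12.5%) and 11 for IL ganglia of females (11.8%). It gave 3 for the female side difference at 5 against 1 week (8.62%) and 1 for females against males at 1 week (0.585%). For the male side difference at 1 week against 24 h it gave 8 (21.6%). The IL ganglia of males at 5 against 1 week had 0 called (14.4%). They had 3 with the ribosomal covariate (7.34%), 2 with limma-voom (14.9%) and 1 with DESeq2 (15.6%). Those of females had 3 called (17.3%) and 0 with the ribosomal covariate (3.44%). The cause of these shifts was not tested.

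With the replicate block the pairing gave 27 called in the 1-week males (53.9% of all genes) and 15 in the 5-week males (41%). It gave 2 for the male side difference at 1 week against 24 h (28.9%). The block moved no other count by over 1.5 times. Week comparisons within one side could not be fitted with the block, because each block, an arm and a number together, belongs to 1 week.

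With each library left out in turn, calls numbered 1 in the 24-h males, 9 (without IL 7) to 31 (without CL 7) in the 1-week males, 3 to 4 in the 5-week males, 2 (without IL 6) to 11 (without CL 2) in the 1-week females, and 6 (without IL 1) to 25 (without CL 5) in the 5-week females. They ranged from 0 (without IL 1 of 5 weeks) to 20 (without IL 6 of 1 week) for IL ganglia of females between weeks, from 0 to 2 for those of males, and from 0 to 1 for the female side difference between weeks and the male one between 1 week and 24 h. The share of all genes called with a library left out is not given here, so these counts describe the members alone. Low counts limit Zbp1 and Ifit3, and near-identical gene copies limit single members of the Ifitm, Gbp, Mx, Oas, Ifit and class I families.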
